A study of Mus musculus with 2 samples.

Results

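S100g, Trpv6, Atp2b1, Vdr and Cyp24a1 are the 5 classical genes of vitamin D dependent calcium absorption, and their transcripts were followed in sc-RNASeq of the ileal epithelium of WT and Tipe0-/- mice. They are the 5 rows, of 27998 gene rows in each library, that carry these symbols. S100g was chosen for its difference between these 2 libraries, and the other 4 genes were added as its known partners, so the ratios between the libraries are given as a description. The WT library came from C57BL/6 mice aged 8 weeks with a wild type genotype, and the Tipe0-/- library from C57BL/6 mice aged 8 weeks that lack TNFAIP8 (TIPE0), a phospholipid transfer protein. The mice were undamaged, and no treatment of them is named. The study pooled the cells of several mice for each genotype, so each genotype has 1 library and no difference between mice can be measured. The labels call the material enterocytes of the ileum, speak of enteroids, and name collagenase with dispase, whereas the methods name DNase I with Dispase.

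In transcellular calcium absorption, calcium enters the enterocyte from the lumen through the channel TRPV6, is carried across the cytosol by calbindin-D9k, the product of S100g, and is pumped out at the basolateral side by PMCA1, the product of Atp2b1. The vitamin D receptor, encoded by Vdr, binds hormonal vitamin D and, with a retinoid X receptor, regulates genes of this route. Cyp24a1 encodes the hydroxylase that degrades the hormone and is a classical target of the receptor. The route is best known from the duodenum, while much of the calcium taken up in the ileum passes between the cells.

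S100g (ENSMUSG00000040808) lies on the minus strand of chromosome X from 162961992 to 162964599 of GRCm38 (mm10), with 3 exons in the GENCODE annotation. Trpv6 (ENSMUSG00000029868) lies on chromosome 6 from 41620624 to 41636405, Atp2b1 (ENSMUSG00000019943) on chromosome 10 from 98914406 to 99026143, Vdr (ENSMUSG00000022479) on chromosome 15 from 97854425 to 97910630, and Cyp24a1 (ENSMUSG00000038567) on chromosome 2 from 170482708 to 170497145. Promoter sequences from RefSeq (GRCm38.p6) were read for S100g, Trpv6, Atp2b1 and Vdr, each running from 250 bases before to 50 bases after an annotated start. The vitamin D receptor is known to bind pairs of hexamers that resemble AGGTCA, and this hexamer was searched on both strands. The 2 promoters that held it are shown because they belong to the member with the largest difference between the libraries and to a member with no UMI. The matches are in capitals, and TGACCT is a match on the other strand.
S100g: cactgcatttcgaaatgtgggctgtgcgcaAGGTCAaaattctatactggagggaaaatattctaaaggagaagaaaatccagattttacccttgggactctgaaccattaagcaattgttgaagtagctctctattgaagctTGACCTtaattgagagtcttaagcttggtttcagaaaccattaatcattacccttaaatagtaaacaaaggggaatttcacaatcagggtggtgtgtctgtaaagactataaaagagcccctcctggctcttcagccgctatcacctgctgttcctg
Trpv6: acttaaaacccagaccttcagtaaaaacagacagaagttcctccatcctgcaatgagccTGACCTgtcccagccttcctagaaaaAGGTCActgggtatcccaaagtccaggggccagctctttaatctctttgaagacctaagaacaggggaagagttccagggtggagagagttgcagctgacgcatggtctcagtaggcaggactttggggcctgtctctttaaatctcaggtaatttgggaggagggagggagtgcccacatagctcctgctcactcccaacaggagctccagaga
The first sequence is chrX:162964550-162964849 and the second chr6:41636356-41636655, both read on the minus strand from 5′ to 3′. In S100g the 2 matches began 220 and 107 bases before the annotated start, and in Trpv6 they began 191 and 165 bases before it. In S100g a TATAAA, the core of the TATA box, began at the annotated start itself, and in Trpv6 no TATAAA was found. The 2 promoters listed for Atp2b1 and the 1 listed for Vdr held neither hexamer. Of 32851 promoters of this length, 16.3% held at least 1 AGGTCA, 1.81% held 2 or more, and 13.6% held a TATAAA. A match describes letters in these windows and not the binding of a factor.

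From WT mice 3402 cells were captured, with 38127808 unique molecular identifiers (UMIs, each standing for 1 captured mRNA molecule) and a median of 7760 per cell. From Tipe0-/- mice there were 2006 cells, 23897126 UMIs and a per-cell median of 7307.5, and 9 cell barcodes occurred in both libraries. Tnfaip8, the targeted gene, had 372 WT and 57 Tipe0-/- UMIs in the whole libraries (log2 ratio -2.02). In the enterocyte-like cells described below Tnfaip8 had 7 and 0 UMIs, too few to show a difference there. Levels are given as UMIs of a gene per 1000000 UMIs of the same cells (CPM), with exact 95% Poisson intervals. Ratios are log2 of Tipe0-/- over WT with exact 95% binomial intervals. All intervals cover counting error only. A gene was compared where its UMIs summed over the libraries to at least 50. The 11665 such genes had a median ratio of 0.15, as had the 7928 such genes of enterocyte-like cells, so a single gene is read against that shift. Cells were clustered without the 5 genes and without related calcium and vitamin D genes. Clusters were named from marker genes, which gave 794 WT and 400 Tipe0-/- enterocyte-like cells, or 23.3% and 19.9% of all cells. The ileal marker Fabp6, a bile acid binding protein, stood at 7277 and 7149 CPM. These are values of the whole libraries, where the distal markers Slc10a2 (121 and 123 CPM) and Osr2 (68.9 and 72.4) were alike. Slc51b (253 and 157) was lower in Tipe0-/-. In enterocyte-like cells Fabp6 (29387 and 40090 CPM) and Slc10a2 (600 and 839) were higher in Tipe0-/-. There Osr2 stood at 119 and 125 CPM, and Slc51b (1121 and 908) was lower. The proximal markers Gata4 (5 and 4 UMIs), Lct (4 and 1), Onecut2 (28 and 26) and Cybrd1 (37 and 21) had few UMIs. Slc40a1, with 1680 and 1379 UMIs, stood at 44.1 and 57.7 CPM, a log2 ratio of 0.39 (0.29 to 0.49). In enterocyte-like cells it stood at 123 and 175 CPM, a log2 ratio of 0.51 (0.35 to 0.66). Slc40a1 was thus higher in Tipe0-/-, and no other proximal marker had 50 UMIs in enterocyte-like cells. Fabp1 went the other way in the whole libraries, with 1266 and 110 UMIs (25 and 16 in enterocyte-like cells). A difference between the libraries in position along the intestine was not tested. S100g is X-linked, and the libraries were alike in the sex of their transcripts, with 3 and 6 UMIs of Xist and 1093 and 911 UMIs of the Y-linked Ddx3y.

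S100g, the cytosolic calcium carrier, was more abundant in the Tipe0-/- library, in enterocyte-like cells and in most other classes. WT cells held 1616 of its UMIs (42.4 CPM, 40.3 to 44.5) and Tipe0-/- cells 2593 (109 CPM, 104 to 113). That is a 2.56-fold higher level (2.40 to 2.73), a log2 ratio of 1.36 (1.27 to 1.45), and 55 of the 11665 genes had a larger ratio. Enterocyte-like cells of WT mice held 168 CPM of S100g (159 to 179), and those of Tipe0-/- mice 538 CPM (513 to 565). The level was 3.20-fold higher (2.96 to 3.45), a log2 ratio of 1.68 (1.57 to 1.79), and 28 of the 7928 genes had a larger one. Of the 5 members, S100g alone passed a log2 ratio of 1 in either comparison. Of all genes with at least 50 UMIs, 1.53% passed it upward and 2.43% downward in the whole libraries, and 2.6% upward and 1.54% downward in enterocyte-like cells. S100g was picked on this difference, so nothing is read from that count.

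Enterocyte-like cells held 71.0% of the S100g UMIs of the WT library and 66.3% of those of the Tipe0-/- library. They fell into a cluster led by Apoa4, Clca4a and Apoa1 (444 WT and 224 Tipe0-/- cells) and a cluster led by Arg2, Ms4a18 and Fabp6 (350 and 176 cells). In the Apoa4-led cluster WT cells held 261 CPM of S100g (245 to 278) and Tipe0-/- cells 896 CPM (851 to 943), which gave a log2 ratio of 1.78 (1.66 to 1.90). The Arg2-led cells held 60.7 CPM (52.4 to 70.0) and 149 CPM (130 to 170), with a smaller ratio of 1.29 (1.01 to 1.58). The level was thus higher in the Apoa4-led cells of both libraries, and the ratio was higher there too, beyond counting error. The sampling of cells is not covered by these intervals. In the Apoa4-led cluster 50% of the S100g UMIs came from 28 WT and 25 Tipe0-/- cells, and in the Arg2-led cluster from 19 and 18. Whether the ratios of the 2 clusters differ beyond that sampling was not tested.

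Every other class as a whole held less S100g than the enterocyte-like class. In the WT library the order was tuft-like cells (25.9 CPM, 19.5 to 33.7), goblet-like cells (21.4 CPM, 18.6 to 24.5), stem-like cells (14 CPM, 9.89 to 19.4), cycling-like cells (12.5 CPM, 9.50 to 16.1), enteroendocrine-like cells (8.52 CPM, 2.32 to 21.8), lymphocyte-like cells (4.15 CPM, 0.503 to 15) and Paneth-like cells (4.03 CPM, 2.65 to 5.86). Each neighbour in that order overlapped the next. In the Tipe0-/- library the order was stem-like (51.5 CPM, 43.1 to 61.0), goblet-like (51.3 CPM, 46.3 to 56.7), enteroendocrine-like (45.5 CPM, 27.8 to 70.3), cycling-like (37.3 CPM, 30.5 to 45.2), tuft-like (33.3 CPM, 23.4 to 45.9), Paneth-like (22.2 CPM, 17.7 to 27.5) and lymphocyte-like (21.6 CPM, 2.62 to 78.1), again with every neighbour overlapping the next. Between the libraries the log2 ratio was 1.86 (1.34 to 2.44) in stem-like cells, 1.57 (1.11 to 2.07) in cycling-like cells, 1.26 (1.02 to 1.51) in goblet-like cells and 2.45 (1.82 to 3.15) in Paneth-like cells. Enteroendocrine-like cells had a ratio of 2.28 (0.84 to 4.42), which rested on 4 UMIs in WT and 20 in Tipe0-/- cells. The median over all genes was not computed within these classes, so their ratios, for any member, have no such baseline. In Paneth-like cells Atp2b1 (0.80) and Vdr (0.74) also lay above 0. In the WT library most goblet-like S100g UMIs came from 1 of 3 clusters, led by Zg16, Ido1 and Clca1 (126 WT and 57 Tipe0-/- cells). The second highest marker score of this cluster was that of enterocytes. It held 144 of the 207 WT and 186 of the 390 Tipe0-/- UMIs of the class, and the Mt3-led cluster held 59 and 194. The Zg16-led cluster stood at 84.2 CPM (71.0 to 99.1) and 227 CPM (196 to 262), above the Arg2-led enterocyte-like cluster in each library. The goblet-like clusters led by Mt3 and by Sval1 stood at 8.70 and 3.35 CPM in WT and at 31.9 and 14.1 CPM in Tipe0-/- cells. The ratios of the 3 clusters were 1.43, 1.87 and 1.98, each above the 1.26 of the class. Tuft-like cells had a log2 ratio of 0.37 whose interval included 0 (-0.28 to 0.99). Lymphocyte-like cells had 2 UMIs in each library, too few for a ratio. The 2 unnamed clusters, led by Dtl and Ccne2 and by Lrg1 and Gsdmc3, had log2 ratios of 1.73 (1.15 to 2.36) and 1.09 (0.46 to 1.71). With the classes weighted alike in both libraries, by their shares of all cells, S100g stood at 49.6 CPM in WT cells and 152 CPM in Tipe0-/- cells. The ratio was then 1.62 (1.53 to 1.71) in place of 1.36. The value of 1.36 weights classes by their UMIs, so the unit of weighting changes along with the makeup, and their parts were not told apart.

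**Figure D1:**
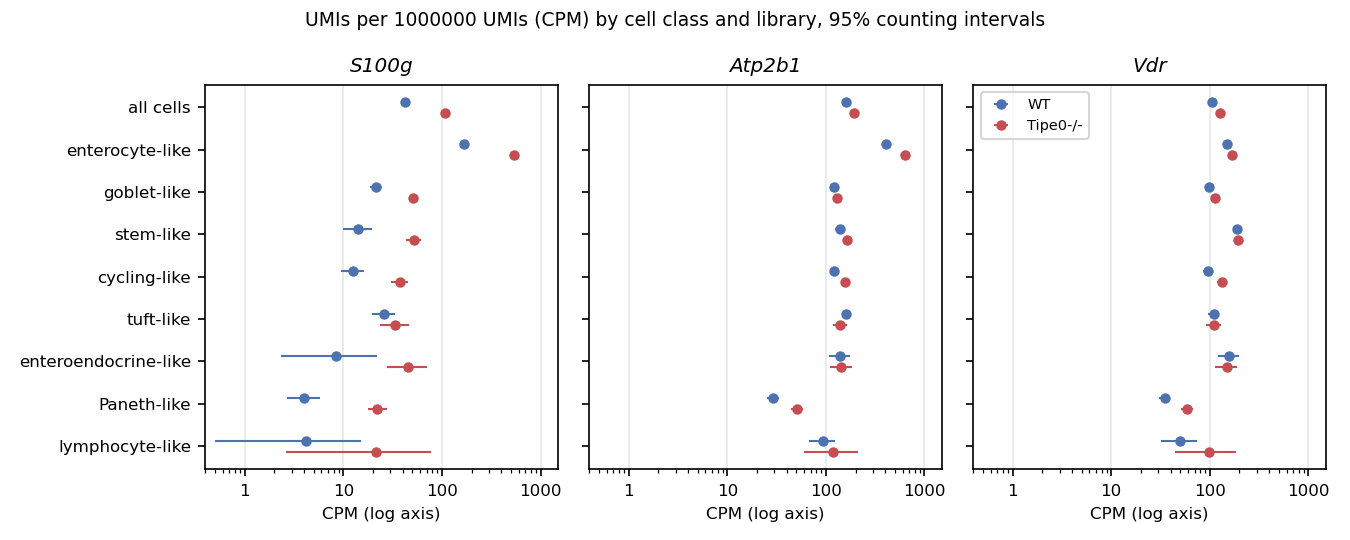
Levels of S100g, Atp2b1 and Vdr in CPM (log axis) in all cells and in each cell class, 1 point per library with exact 95% Poisson intervals. S100g in enterocyte-like cells stood at 168 CPM in WT and 538 CPM in Tipe0-/-, Atp2b1 at 408 and 631, and Vdr at 151 and 168, with its highest level in stem-like cells.

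Transcripts freed from broken enterocytes can enter any droplet, so S100g was set beside 5 transcripts known from enterocytes (Apoa1, Apoa4, Apoc3, Fabp1 and Fabp2). Of these Fabp1 had only 25 WT and 16 Tipe0-/- UMIs in enterocyte-like cells and was a leading gene of the tuft-like cluster. For every 1000 UMIs of that list, enterocyte-like cells had 22.1 S100g UMIs (20.8 to 23.4) in WT and 43.9 (41.8 to 46.0) in Tipe0-/-. Stem-like cells had 145 (102 to 200) and 315 (264 to 374), and Paneth-like cells 54.4 (35.9 to 79.2) and 256 (204 to 318). The ratio of S100g to the list was higher in both of these classes than in enterocyte-like cells of the same library. It was not so everywhere: the Sval1-led goblet-like cluster had 3.47 (0.945 to 8.88) and 10.3 (4.95 to 19), below the enterocyte-like cells. Tuft-like cells had 26.7 (20.1 to 34.7) in WT, which overlapped the enterocyte-like value, and 65.5 (46.1 to 90.3) in Tipe0-/-. Their list UMIs include those of Fabp1, a leading gene of that cluster. In the Arg2-led enterocyte-like cluster the ratio of S100g to the list was 138 (119 to 159) and 244 (213 to 278). The part of free RNA in the low levels of the other classes was not tested.

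Over all cells and in enterocyte-like cells, both the share of cells with an S100g UMI and the mean among such cells were higher in the Tipe0-/- library. A higher level per cell can by itself raise both values, so more carrying cells and more transcript per cell are not told apart. Cells were thinned to 3000 UMIs each, which left out no cell. In enterocyte-like cells 23.0% (20.2 to 26.1%) of WT and 43.8% (38.8 to 48.8%) of Tipe0-/- cells then had an S100g UMI, a difference of 20.7 percentage points (15 to 26.3), and the cells that had one held a mean of 2.61 and 4.46. Unthinned, the shares were 35.6% and 59.0%. Over all cells the thinned shares were 8.41% and 16.2%, a difference of 7.79 percentage points (5.96 to 9.69), and the unthinned shares 17.4% and 36.4%. In Paneth-like cells, which are not absorptive, 0.709% (0.0860 to 2.54%) of WT and 2.88% (0.790 to 7.20%) of Tipe0-/- cells had an S100g UMI after thinning, at unthinned medians of 20981.5 and 26111 UMIs against 6434 and 5697 in enterocyte-like cells. Lymphocyte-like cells gave 2 of 92 cells, or 2.17% (0.264 to 7.63%), and 1 of 17 cells, or 5.88% (0.149 to 28.7%), at medians of 4492 and 4315 UMIs. Both classes stand in for background, since neither absorbs calcium. The thinned shares in stem-like cells were 5.10% (2.94 to 8.14%) and 11.8% (8.11 to 16.4%), at medians of 6301 and 6950 UMIs, and those in goblet-like cells 3.59% (2.38 to 5.17%) and 8.77% (6.47 to 11.6%). These overlapped the lymphocyte-like shares, which rest on few cells. Set beside the Paneth-like shares, the stem-like shares lay above without overlap in both libraries, and the goblet-like shares overlapped in both. Unthinned, the Tipe0-/- shares were 35.8% in stem-like and 35.3% in Paneth-like cells, whose far greater depth the thinning removes, so no expression is read from the shares of these classes. Tuft-like cells gave 9 of 159 WT cells and 0 of 53 Tipe0-/- cells (interval up to 6.72%). The unthinned tuft-like shares ran the other way, 20.8% and 45.3%, at medians of 12013 and 17650 UMIs per cell, so no order is read for that class.

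S100g was concentrated in few cells. In the Apoa4-led cluster the median WT cell had 0 S100g UMIs per 10000 and the cell at the 90th percentile 8.19, whereas the median Tipe0-/- cell had 2.73 and the cell at the 90th percentile 28.4. The richest WT cell held 45 S100g UMIs and the richest Tipe0-/- cell 52. Over the whole library 50% of the S100g UMIs came from 72 WT cells (2.12%) and from 62 Tipe0-/- cells (3.09%). For Atp2b1 the same part came from 474 WT cells (13.9%) and 294 Tipe0-/- cells (14.7%), and for Vdr from 497 (14.6%) and 302 (15.1%). Without the 10 cells richest in S100g in each library, the log2 ratio in enterocyte-like cells was still 1.68.

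Atp2b1, the basolateral calcium pump, was also higher in Tipe0-/- enterocyte-like cells, by a smaller amount. Its 6118 UMIs in WT cells (160 CPM, 156 to 165) and 4655 in Tipe0-/- cells (195 CPM, 189 to 200) gave a log2 ratio of 0.28 (0.22 to 0.33), not far above the median of all genes. Enterocyte-like cells held 408 CPM (393 to 423) and 631 CPM (604 to 660), a ratio of 0.63 (0.55 to 0.71) that 834 of the 7928 genes exceeded. Of these cells 64.6% and 80.0% had an Atp2b1 UMI after thinning, a difference of 15.4 percentage points (10.1 to 20.4). The ratio was 0.73 (0.63 to 0.83) in the Apoa4-led and 0.47 (0.32 to 0.62) in the Arg2-led cluster, intervals that do not touch. In the WT library enterocyte-like cells were followed by tuft-like (161 CPM), enteroendocrine-like (139), stem-like (138), cycling-like (121), goblet-like (120), lymphocyte-like (93.4) and Paneth-like cells (29.4), and only the first and the last step in that order exceeded counting error. The Tipe0-/- library gave 163 CPM in stem-like, 156 in cycling-like, 143 in enteroendocrine-like, 140 in tuft-like, 131 in goblet-like, 119 in lymphocyte-like and 51.1 in Paneth-like cells. Paneth-like cells had a log2 ratio of 0.80 (0.50 to 1.09), goblet-like cells of 0.13 (0.00 to 0.25), and tuft-like cells of -0.20 (-0.48 to 0.08). With the same makeup of classes the log2 ratio was 0.44 (0.38 to 0.49).

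Vdr, the receptor, had UMIs in every class and differed least between the libraries among the members with UMIs in enterocyte-like cells. Its 3968 UMIs in WT cells (104 CPM, 101 to 107) and 3010 in Tipe0-/- cells (126 CPM, 121 to 131) gave a log2 ratio of 0.28 (0.21 to 0.34). Enterocyte-like cells held 151 CPM (142 to 161) and 168 CPM (154 to 183), a ratio of 0.16 (0.00 to 0.31), which lay at the median of all genes there (0.15). After thinning 33.9% and 38.3% of them had a Vdr UMI, which differ by 4.37 percentage points, an amount whose interval included 0 (-1.35 to 10.2). Its highest level was in stem-like cells, at 191 CPM (174 to 208) and 192 CPM (176 to 210), with a ratio of 0.01 (-0.17 to 0.19). In the WT library enteroendocrine-like cells (156 CPM) and enterocyte-like cells (151 CPM) came next, with tuft-like (110), goblet-like (97.2), cycling-like (94.8), lymphocyte-like (49.8) and Paneth-like cells (35.1) below them. The steps from enterocyte-like to tuft-like and from cycling-like to lymphocyte-like cells exceeded counting error. In the Tipe0-/- library enterocyte-like cells (168 CPM) came second, followed by enteroendocrine-like (148), cycling-like (132), goblet-like (113), tuft-like (110), lymphocyte-like (97.3) and Paneth-like cells (58.6). Cycling-like and Paneth-like cells had log2 ratios of 0.48 (0.28 to 0.68) and 0.74 (0.47 to 1.01), and the ratios of tuft-like, enteroendocrine-like and lymphocyte-like cells had intervals that included 0.

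Trpv6, the entry channel, and Cyp24a1, the hormone-degrading enzyme, had 0 UMIs in all 5408 cells of both libraries. Taken as at most 3 counts, a count of 0 allows a level of up to 0.0787 CPM in the WT and 0.126 CPM in the Tipe0-/- library, and a share of up to 0.0555% of all cells with a UMI. Neither gene was detected, and no ratio can be given. These are 3′ libraries, and whether the annotation used for counting covers the 3′ ends of both genes was not checked, so the limits hold only for transcripts that could be counted. Their rows are present in the gene list of both libraries.

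**Figure D2:**
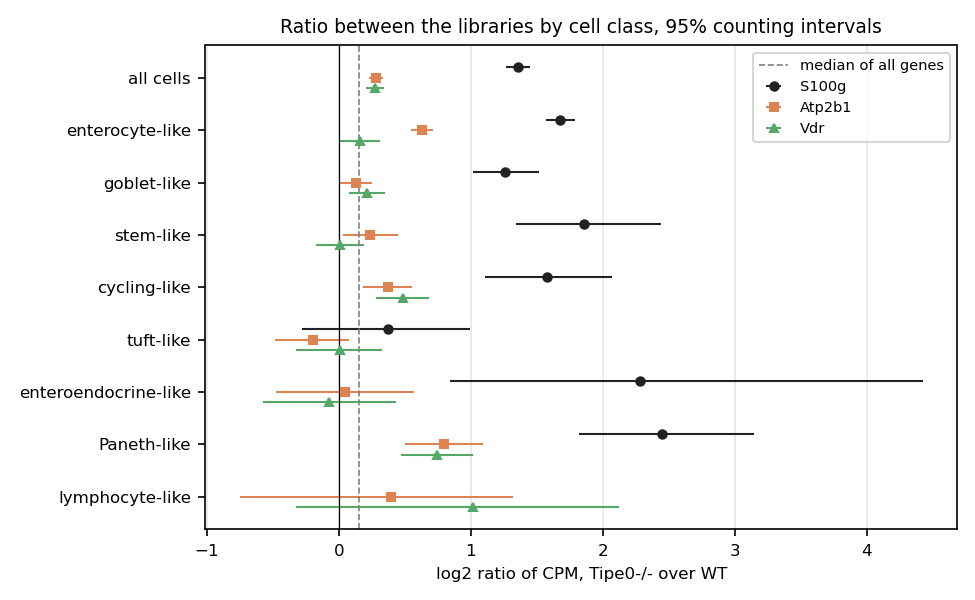
Log2 ratio of CPM, Tipe0-/- over WT, for S100g, Atp2b1 and Vdr in all cells and in each class, with exact 95% binomial intervals that cover counting error. S100g lay at 1.68 in enterocyte-like cells and at 0.37 in tuft-like cells, while Vdr lay at 0.16 in enterocyte-like cells. The dashed line is the median of all genes in the whole libraries (0.15), which was not computed within the other classes.

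Markers of other cells and states moved between the libraries as well. In enterocyte-like cells the 15 enterocyte markers summed to 43274 CPM in WT and 60090 CPM in Tipe0-/-. Of these 12 of 15 lay above 0, as did 66.1% of all genes there, and their median log2 ratio was 0.36. Alpi (1.14) and Fabp2 (1.02) exceeded 1, as did 2.6% of all genes there. The 13 lymphocyte markers with a row summed to 136 and 19.4 CPM in enterocyte-like cells and to 226 and 59.0 CPM in the whole libraries. The 4 haemoglobin genes summed to 57.4 and 8.77 CPM in enterocyte-like cells and to 31.4 and 81.8 CPM in the whole libraries. Without the cells that carried a haemoglobin UMI the S100g log2 ratio was 1.73 in enterocyte-like cells and 1.42 in the whole libraries. Without the lymphocyte-like cluster and a goblet-like cluster that also scored for enterocyte markers it was 1.35 in the whole libraries. The part of the enterocyte markers in the S100g ratio was not tested.

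Enterocyte-like cells were next grouped by their own S100g UMIs after thinning. Of WT cells 611 (77.0%) had 0, 127 (16%) had 1 or 2 and 56 (7.05%) had 3 or more, and of Tipe0-/- cells 225 (56.3%), 102 (25.5%) and 73 (18.3%). Atp2b1 stood at 386 CPM (370 to 403) in WT cells with 0 and 521 CPM (457 to 592) in those with 3 or more. In Tipe0-/- cells it stood at 505 CPM (472 to 541) and 1004 CPM (920 to 1093). Atp2b1 was thus higher in Tipe0-/- cells in both groups, including the cells with 0 after thinning. Some of those cells carried S100g, since unthinned only 64.4% of WT and 41% of Tipe0-/- enterocyte-like cells had no S100g UMI. The upper group has no upper limit and need not hold the same S100g counts in both libraries. Vdr showed no such order, with 152 CPM (142 to 163) and 114 CPM (85.4 to 150) in WT and 169 CPM (150 to 190) and 176 CPM (142 to 216) in Tipe0-/- cells. Slc34a2, the intestinal phosphate transporter NaPi-IIb, went from 285 to 402 CPM in WT and from 413 to 1172 CPM in Tipe0-/- cells, and Cubn, the endocytic receptor cubilin, from 55.4 to 141 CPM and from 144 to 396 CPM. The cells with 3 or more came mostly from the Apoa4-led cluster (89.3% in WT and 93.2% in Tipe0-/-), compared with 50.9% and 40.4% of the cells with 0. The part of cell maturity in these differences was not tested.

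**Figure D3:**
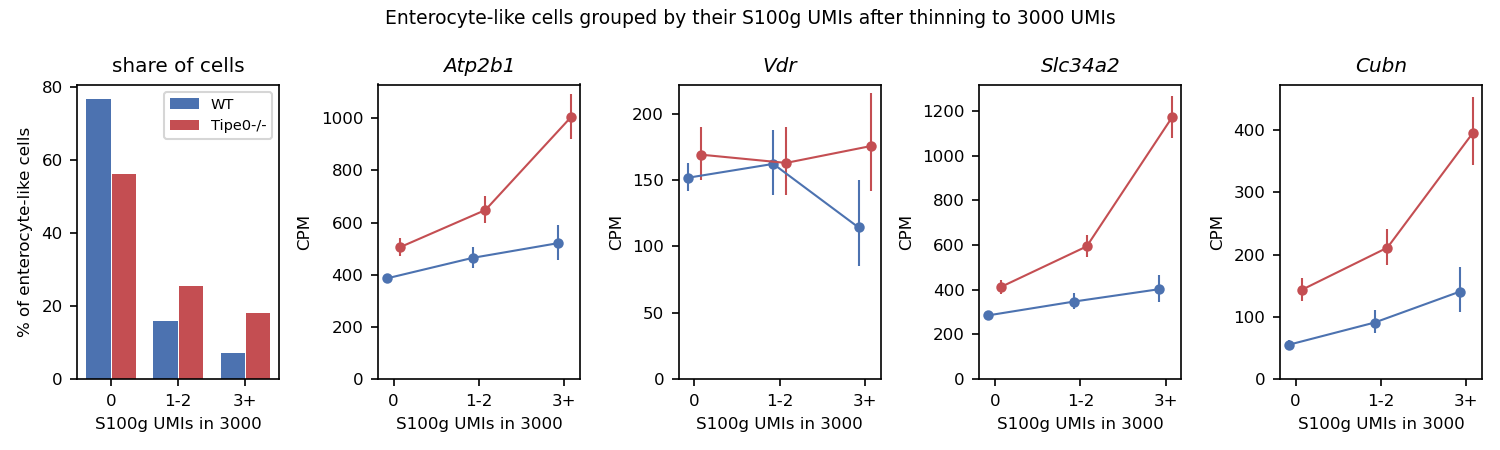
Enterocyte-like cells grouped by S100g UMIs after thinning to 3000 UMIs, with the share of cells in each group (bars) and the CPM of Atp2b1, Vdr, Slc34a2 and Cubn (points with 95% Poisson intervals) for each library. In Tipe0-/- cells Atp2b1 went from 505 to 1004 CPM and Slc34a2 from 413 to 1172 CPM, and Vdr had no such order.

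Enterocytes change as they climb the villus, so the enterocyte-like cells were divided into 3 bins by a score of villus tip genes minus villus bottom genes. S100g stood at 116 CPM (105 to 129), 207 CPM (188 to 227) and 226 CPM (202 to 253) from bottom to tip in WT, and at 389 CPM (348 to 433), 421 CPM (386 to 458) and 785 CPM (734 to 840) in Tipe0-/- cells. In WT it was lowest in the bottom bin, whereas in Tipe0-/- cells the bottom and middle bins overlapped, both below the tip bin. In each bin the Tipe0-/- level was above the highest WT level. The log2 ratio was 1.74 (1.52 to 1.96), 1.02 (0.84 to 1.21) and 1.79 (1.61 to 1.98). Atp2b1 had log2 ratios of 0.61, 0.46 and 0.80, and Vdr of 0.03, 0.29 and 0.23. Some genes of the score differed between the libraries themselves. In enterocyte-like cells the bottom genes Reg3b, Reg3g and Lypd8 had log2 ratios of -0.44, -0.90 and -0.80, and Nlrp6, Il18 and Ccl25 of 0.15, 0.03 and -0.13. The tip genes Ada, Slc28a2, Apoa4, Krt20 and Egfr had ratios of 0.96, 0.55, -0.24, -0.19 and -0.07. The tip gene Nt5e had 7 UMIs in WT and 17 in Tipe0-/- cells. The part of either side in the score was not tested, and the bottom bin held 312 of the WT and 86 of the Tipe0-/- cells. With bins of equal size within each library, a division made after the data were seen, the S100g ratios were 1.56, 1.66 and 1.84. The low middle ratio was therefore not seen with that division.

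**Figure D4:**
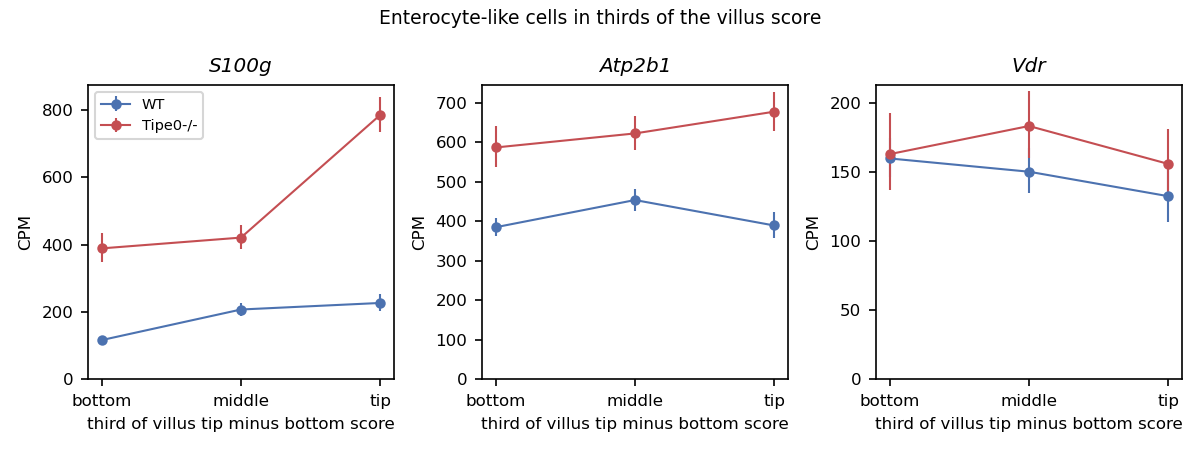
CPM of S100g, Atp2b1 and Vdr in 3 bins of enterocyte-like cells along the villus tip minus bottom score, cut over both libraries together, with 95% Poisson intervals. S100g reached 226 CPM in the tip bin of WT and 785 CPM in that of Tipe0-/- cells.

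The rest of the calcium and vitamin D machinery was described with 8 lists of 82 genes, chosen with results of these data known. Of the 47 with at least 50 UMIs, 4 (8.51%) had a log2 ratio of at least 1 and 0 of -1 or below, against 1.53% and 2.43% of all genes, and their median was 0.08 against 0.15. In enterocyte-like cells 5 of 43 (11.6%) had a log2 ratio of at least 1 and 0 of -1 or below, against 2.6% and 1.54% of all genes, and their median was 0.10 against 0.15. The median of the listed genes thus lay near that of all genes, while a larger share of them had a log2 ratio of at least 1. Since the lists were chosen with results known, nothing is read from that share. In enterocyte-like cells the list medians ran from -0.33 for the other S100 genes to 0.90 for the other vitamin D responsive transporters and enzymes.

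The listed genes with a log2 ratio of at least 1 lay mostly among the other vitamin D responsive transporters and enzymes. Cyp3a25, a xenobiotic and steroid hydroxylase, had 30 WT and 93 Tipe0-/- UMIs, and its log2 ratio was 2.29 (1.70 to 2.95). In enterocyte-like cells it stood at 3.82 and 25.7 CPM, with a log2 ratio of 2.73 (2.1 to 3.44). No other of the 43 listed genes compared there had a larger ratio, and it rested on few UMIs. Slc30a10, a manganese exporter, stood at 33.0 and 88.6 CPM in enterocyte-like cells, a log2 ratio of 1.42 (1.16 to 1.68). Abcc2, the apical efflux pump MRP2, stood at 9.40 and 23.5 CPM there, a log2 ratio of 1.32 (0.82 to 1.82). Slc34a2 stood at 303 and 594 CPM there, a log2 ratio of 0.97 (0.88 to 1.06), and Cldn2, a claudin that forms pores for small cations, at 130 and 203 CPM, a log2 ratio of 0.64 (0.50 to 0.79). Of this list 7 of 8 genes with at least 50 UMIs lay above 0 in enterocyte-like cells, as did 66.1% of all genes there. Their median was 0.90 against 0.15, and Abcc3, a basolateral efflux pump, was the one below 0 (-0.62).

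Among the genes of vitamin D handling, Cubn, which takes up vitamin D binding protein in the kidney and intrinsic factor with its vitamin in the ileum, stood at 66.7 CPM in WT and 206 CPM in Tipe0-/- enterocyte-like cells, a log2 ratio of 1.63 (1.45 to 1.80). The other genes of that list were closer to 0, with Pdia3, a disulfide isomerase, at 0.13 and the corepressor Ncor1 at 0.38. Rxra, a partner of the receptor, had a log2 ratio of 0.10 (-0.15 to 0.34). Cyp27b1, which makes the active hormone, had 0 UMIs in WT and 3 in Tipe0-/- cells, and Gc and Lrp2 had 0 in both.

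Among channels and exchangers Trpm6, a magnesium channel, stood at 12.0 and 30.1 CPM in enterocyte-like cells, a log2 ratio of 1.32 (0.88 to 1.76), and in the whole libraries it lay just below 1. Trpm7 and Orai1, a kinase-linked magnesium channel and the pore of store-operated calcium entry, had log2 ratios of 0.50 (0.16 to 0.82) and 0.10 (-0.17 to 0.36) there, and Orai1 was at -0.23 in the whole libraries. Trpv5, the renal relative of Trpv6, and the sodium-calcium exchangers Slc8a1 and Slc8a2 had 0 UMIs, and the pumps Atp2b2, Atp2b3 and Atp2b4 had 23, 0 and 13 UMIs in WT and 3, 1 and 8 in Tipe0-/- cells. Nearly all UMIs of plasma membrane calcium pumps in these libraries were thus those of Atp2b1.

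The 7 cytosolic calcium binding genes compared in enterocyte-like cells had lower ratios than S100g. They lay between -0.33 and 0.09, with a median of -0.11 against 0.15 for all genes there. Of them 0 passed a log2 ratio of 1 in either direction, near the 2.6% upward and 1.54% downward of all genes, so nothing is read from that count. S100a10, a partner of TRPV6 at the membrane, had a log2 ratio of -0.33 (-0.38 to -0.28). The calbindin gene Calb1 had 2 UMIs in all, and Calb2 and Pvalb had 0. Of the other S100 genes 7 had at least 50 UMIs, and in the whole libraries all 7 lay below 0, between -0.49 and -0.08, where 69.3% of all genes lay above 0. Of all genes in enterocyte-like cells 66.1% lay above 0, while 6 of these 7 lay below it, among them S100a6 at -0.13. S100a14 (39 and 27 UMIs) was at 0.57.

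Of the store pumps and channels 0 of 7 passed a log2 ratio of 1 in either direction in enterocyte-like cells. That is near the 2.6% upward and 1.54% downward of all genes there, so nothing is read from the count. Calr, the store calcium buffer calreticulin, was at -0.61 (-0.69 to -0.53) and Canx, the chaperone calnexin, at 0.09 (0.00 to 0.17). Of the claudins Cldn7 and Cldn3, those with the most UMIs, were at -0.10 (-0.15 to -0.05) and 0.13 (0.04 to 0.21) there and at -0.29 and -0.17 in the whole libraries. The genes of systemic calcium sensing were nearly silent, with 35 UMIs in WT and 26 in Tipe0-/- over 7 genes, of which Stc2 and Fgfr1 had the most.

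**Figure D5:**
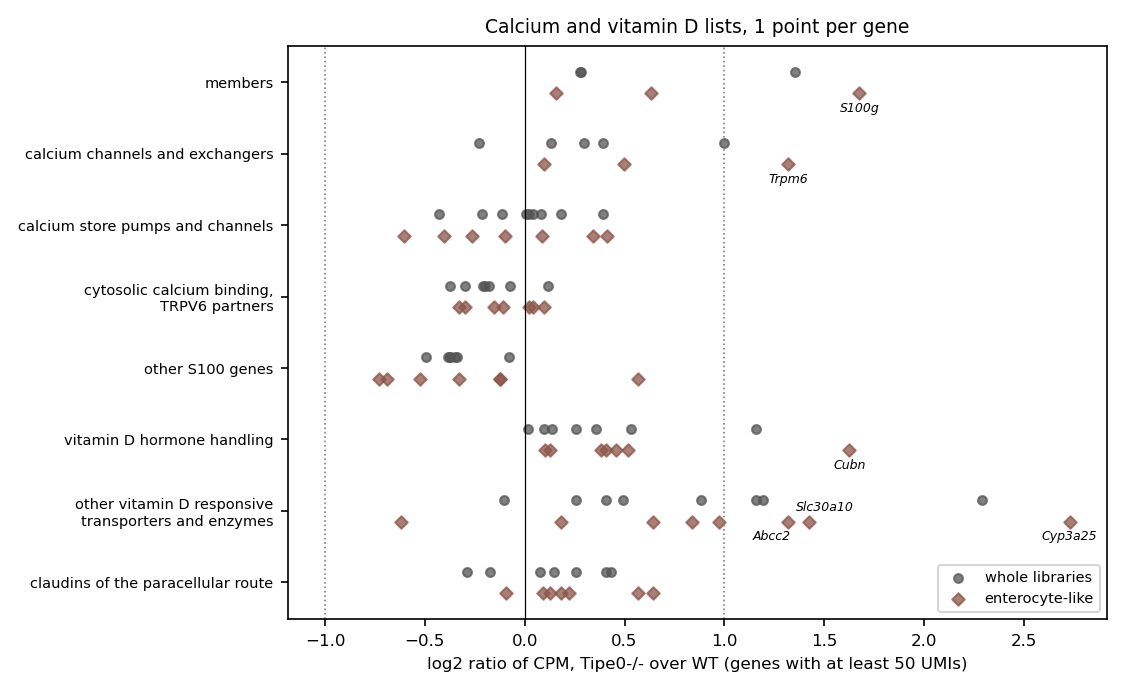
Log2 ratio of CPM, Tipe0-/- over WT, of the members and of each listed gene with at least 50 UMIs, in the whole libraries (circles) and in enterocyte-like cells (diamonds), with dotted lines at -1 and 1. In enterocyte-like cells Cyp3a25 (2.73), S100g (1.68), Cubn (1.63), Slc30a10 (1.42), Abcc2 (1.32) and Trpm6 (1.32) lay beyond 1, and the other S100 genes lay mostly below 0.

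Finally, S100g was compared with every other gene with at least 200 UMIs by the Pearson correlation of log2(CPM + 1) over 22 points, the clusters of at least 20 cells in each library. The points share 2 libraries and their depth, and 9840 genes were compared. The difference between the libraries for which S100g was picked is part of its pattern here and enters each r. The genes most like S100g were Slc30a10 (r = 0.97), C130074G19Rik (r = 0.96), Dpp4 (r = 0.93), a brush border peptidase, Dpyd (r = 0.93), a pyrimidine-degrading enzyme, and Khk (r = 0.93), the fructose kinase ketohexokinase. Between the libraries these differed unequally in enterocyte-like cells, with log2 ratios of 1.42, -0.07, 0.49, 0.88 and 0.29. Atp2b1 ranked 26 (r = 0.90) and Slc34a2 ranked 42 (r = 0.88), whereas Vdr ranked 1311 (r = 0.61).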

How the data were processed

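The authors used 10x Single Cell 3′ v2 chemistry, aligned to mm10 in Cell Ranger, and deposited raw UMI counts per gene and cell. All deposited cells were kept. Clustering used Seurat 5.3.0 (R 4.3.3) on log-normalized counts, 14 principal components and resolution 0.8. The members, the calcium and vitamin D lists and the genes of the study's genotype table were kept out, leaving 521 of 582 variable genes. Clusters were named from markers, and 2 of 12 stayed unnamed. Enteroendocrine-like cells come from a second clustering on 2000 vst genes. Scrublet (Scanpy 1.11.5) called 15 WT and 3 Tipe0-/- cells, too few to have worked, so doublets were not removed.

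UMIs were summed by library and class. With 1 library per genotype no test was made. Ratios have 0.5 added to each sum, and none is given where neither sum exceeds 3 UMIs. Shares have Clopper-Pearson and their differences Newcombe intervals, after a seeded draw of 3000 UMIs per cell (numpy 2.4.6, Python 3.11.15). The ratios with their intervals and the Newcombe intervals were tested on simulated counts, which did not gather in few cells as S100g does. The other steps were not tested in this way. Named are the members, listed genes with a log2 ratio of at least 1 in either direction and at least 50 UMIs, the 2 genes of each list with the most UMIs and the 5 genes most like S100g, and others were named after their values were seen. Some genes that this rule names are not reported here. Members and lists were chosen with earlier results of these data known. The alternatives changed the totals, the cells kept, the clustering, the thinning and the minimum of UMIs.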

Additional observations from a re-analysis of the deposited data

How the results depend on the processing

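No paired analysis was possible because each genotype has 1 library. The log2 ratios of S100g, Atp2b1 and Vdr were positive under all 82 alternatives computed. S100g was picked for its difference, and 69.3% of all genes lay above 0 in the whole libraries, so nothing is read from that count. For Vdr in enterocyte-like cells some of the intervals included 0. Scaling to the median ratio over genes set the S100g ratio at 1.2 in whole libraries, 1.53 in enterocyte-like cells and 1.47 with the same makeup of classes. The mean over cells of ln(1 + UMIs per 10000) gave 1.11 and 1.08 in whole libraries and enterocyte-like cells. The Arg2-led cluster alone, an alternative added after the data were seen, gave 1.29. For Atp2b1 and Vdr 44 of 52 alternatives stayed within counting error of the reported value, and scaling to the median ratio gave Vdr 0.01 and Atp2b1 0.48 in enterocyte-like cells. The difference in the share of cells with an S100g UMI was 19.0 percentage points without thinning and 3.05 for at least 2 UMIs. The shares of all genes past the fold depended on the minimum of UMIs. In whole libraries they were 0.61% upward and 1.35% downward at 200 UMIs and 3.47% and 4.73% at 10 UMIs. In enterocyte-like cells they were 1.12% upward at 200 UMIs, and 6.57% upward and 2.93% downward at 10 UMIs. Differences between mice cannot be measured, and for genes at 0 UMIs both the depth and the unchecked annotation of their 3′ ends limit what a 0 means.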
